A study of Mus musculus with 4 samples.

Results

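The respiratory chain genes were taken as every gene row whose symbol began with mt-, Nduf, Uqcr, Atp5, Cox4, Cox5, Cox6, Cox7 or Cox8, together with Sdha, Sdhb, Sdhc, Sdhd and Cycs, and without symbols containing -ps. The choice used names only and no measured value. It gave 110 of 32544 genes, 97 in the nuclear genome and 13 in the mitochondrial genome. They were measured in bone marrow cells of 10-week-old mice, sorted by flow cytometry and labelled as nucleated bone marrow cells, with 3′ droplet single-cell RNA sequencing. WT mice gave 2 libraries and YAP1 heterozygote mice gave 2 libraries, in a study on YAP1, MYH9 and platelet formation in immune thrombocytopenia. How the YAP1 allele was made, the mouse strain and the sort gates are not given in the sources used here, and no treatment is named.

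The respiratory chain passes electrons from complexes I and II to complex III, and from there through cytochrome c to complex IV, which reduces oxygen. Complexes I, III and IV pump protons across the inner mitochondrial membrane, and ATP synthase, complex V, uses the gradient to make ATP. Most subunits are encoded in the nucleus and imported, while the mitochondrial genome encodes core subunits of complexes I, III, IV and V, so each of these complexes is built from transcripts of both genomes. In blood formation, erythroid precursors are known for a high content of mitochondria, which they use for heme synthesis and lose as they mature, and neutrophils are known for few mitochondria and a reliance on glycolysis.

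Of the nuclear members, 38 were subunits of complex I, 8 were assembly factors of complex I whose symbols share the Nduf stem, 4 belonged to complex II, 8 to complex III, 20 to complex IV and 18 to complex V, and the last was Cycs, somatic cytochrome c. The mitochondrial members were 7 subunits of complex I, 1 of complex III, 3 of complex IV and 2 of complex V. The nuclear members lay on 19 chromosomes. No UMI (unique molecular identifier, the count of 1 captured transcript molecule) was counted for Cox8b or for the second of the 2 rows named Atp5o. Ndufa4l2 had 4 UMIs in all libraries together, Ndufb11b had 3, and Cox7b2 and Cox8c had 1 each. These 6 genes were too low for the test in every class, and the other 104 were tested in at least 1 cell class.

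The libraries held between 112806900 and 119855112 UMIs, and 10565 to 13231 cells per library were kept, with median UMI counts per cell between 5518 and 6747. Ptprc, the CD45 gene of leukocytes, was present in every library. Values of the 4 libraries are given throughout in the order WT 1, WT 2, YAP1 heterozygote 1, YAP1 heterozygote 2. Yap1 had 6, 7, 0 and 6 UMIs in that order, too few to compare (a count of 0 allows up to 3), and counts at the 3′ end do not separate a changed allele from an intact one. Ddx3y on the Y chromosome was expressed in the first library of each genotype and Xist in the second, so a genotype was not represented by 1 animal. WT replicate 1 stood apart in 2 neutrophil-like clusters led by Cxcl2, Nfkbiz and Clec4e: 1305 and 310 of their cells came from it, against at most 125 from any other library. Pairs of libraries shared between 27 and 62 cell barcodes. Clustering gave 35 clusters and 26 classes, of which 23 had at least 20 cells in each library; the members were left out of the genes used for clustering. Classes are called "-like" by the leading genes and markers of their clusters, and clusters 17, 26 and 27 stayed unnamed. Cluster 17 was led by genes of antigen presentation, cluster 26 by Myl4, Vpreb3 and Chchd10, and cluster 27 by immunoglobulin constant region genes and Jchain.

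Members that rise and fall together over classes invite a look at their promoters, so RefSeq windows of 250 bases before the transcription start (GRCm38.p6) were searched on both strands for the motifs of nuclear respiratory factor 1 (NRF1: GCGCA and GCGC with 1 base of any kind between them) and of the ETS family that holds GABP (CCGGAAG), both of them known regulators of respiratory genes. Of 96 nuclear symbols, 78 had a window in the table, and Cox6a2 did not. The NRF1 motif was in 18.1% of the 83 windows of members, and in 3.74% of the 32851 windows of all genes. The ETS motif was in 16.9% of the members' windows and in 6.91% of all windows. The members' windows were also richer in CpG, with a median of 15 against 6 in all windows, and the NRF1 motif holds CpG itself, so a match is a description and not a site. Shown are the windows of the isoform genes described with the results (Cox6a1, Cox6b1, Cox6b2, Atp5g1) and of Atp5e, the epsilon subunit of ATP synthase, each trimmed to its longest stretch outside annotated exons. All lie on the minus strand, and capitals mark motif matches. The stretches are chr5:115348982-115349129 for Cox6a1, chr7:30626152-30626364 for Cox6b1, chr7:4753095-4753225 for Cox6b2, chr11:96075671-96075881 for Atp5g1 and chr2:174464106-174464351 for Atp5e.
Cox6a1: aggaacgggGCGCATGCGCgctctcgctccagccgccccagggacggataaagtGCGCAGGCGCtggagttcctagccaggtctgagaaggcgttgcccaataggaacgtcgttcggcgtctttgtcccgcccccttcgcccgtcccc
Cox6b1: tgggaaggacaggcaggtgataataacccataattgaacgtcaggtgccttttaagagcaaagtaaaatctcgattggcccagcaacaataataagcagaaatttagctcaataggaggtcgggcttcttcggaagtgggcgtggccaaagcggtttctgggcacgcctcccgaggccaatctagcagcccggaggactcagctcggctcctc
Cox6b2: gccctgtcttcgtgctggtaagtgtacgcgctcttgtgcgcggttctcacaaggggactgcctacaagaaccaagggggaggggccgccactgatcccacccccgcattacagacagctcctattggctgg
Atp5g1: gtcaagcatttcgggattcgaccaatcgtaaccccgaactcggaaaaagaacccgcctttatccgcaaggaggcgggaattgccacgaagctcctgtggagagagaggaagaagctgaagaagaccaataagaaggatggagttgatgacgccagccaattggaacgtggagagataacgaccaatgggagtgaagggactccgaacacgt
Atp5e: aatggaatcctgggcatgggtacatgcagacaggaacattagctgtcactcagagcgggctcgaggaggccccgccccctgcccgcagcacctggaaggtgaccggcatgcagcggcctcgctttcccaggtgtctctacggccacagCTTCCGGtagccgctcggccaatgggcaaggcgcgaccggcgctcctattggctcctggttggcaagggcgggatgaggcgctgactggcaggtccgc
The Cox6a1 stretch held 2 matches to the NRF1 motif and the Atp5e stretch 1 match to the ETS motif, read here from the opposite strand as CTTCCGG. The Cox6b1, Cox6b2 and Atp5g1 stretches held no match to these letters.

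Nuclear members made up the largest share of the transcriptome in erythroid progenitor-like cells and, among the 23 classes with at least 20 cells in each library, the smallest in mature and maturing neutrophil-like cells. In erythroid progenitor-like cells the nuclear members summed to 3.62%, 3.51%, 3.59% and 3.67% of all UMIs. In mature neutrophil-like cells the values were 0.831%, 0.714%, 0.783% and 0.776%. The 4 libraries of each class lay close together, and the classes did not overlap: the ratio, taken in each library, was 4.64 on average. With the members and the 20 highest genes of each class left out of the total, the ratio was 3.32. Counted as UMIs per cell it was 47.6, where erythroid progenitor-like cells had a median of 39588 UMIs and mature neutrophil-like cells had 3075. Classes came from clusters of the same cells, so levels across classes are given as descriptions with no test.

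Between these ends the order of the nuclear level mixed lymphoid, monocytic and progenitor classes. Maturing neutrophil-like cells had 0.792% ± 0.041 (SD, n = 4 libraries, as for all class values), within the spread of the mature ones, and immature neutrophil-like cells had 1.09% ± 0.033. Cluster 27, at 0.964% ± 0.15, lay between them on average, and dividing neutrophil precursor-like cells had 1.49% ± 0.048. Mature B cell-like cells had 1.34% ± 0.058, nonclassical monocyte-like cells 1.35% ± 0.038 and macrophage-like cells between 1.38% and 1.61%, and these neighbours overlapped. T cell-like (1.63%), basophil or mast cell-like (1.64%), immature B cell-like (1.71%), cluster 17 (1.78%) and small pre-B cell-like cells (1.84%) also followed each other within their spread. NK cell-like cells had 1.97% ± 0.083, hematopoietic stem and early progenitor-like cells 2.14% ± 0.075 and plasmacytoid dendritic cell-like cells 2.17% ± 0.091. The highest levels below the erythroid classes were in classical monocyte-like (2.40%), pro-B or large pre-B cell-like (2.50%), megakaryocyte-like (2.52% ± 0.066) and granulocyte-monocyte progenitor or promyelocyte-like cells (GMP-like, 2.73% ± 0.088) and in cluster 26 (2.74% ± 0.11), which overlapped the GMP-like cells. Erythroblast-like cluster 30, with hemoglobin genes among its leading genes, had 3.17% ± 0.041. Erythroblast-like cluster 31, in which the 20 highest genes took 72.3% of all UMIs, had 0.528% ± 0.11 and only 15 cells in WT replicate 1, so it was not tested. Over the 23 classes the nuclear level had r = 0.55 with the log2 median UMI count of the class, a description over points that share libraries.

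The mitochondrial members were ordered differently, with 3 of the 4 classes named for the B lineage and T cell-like cells at the top. Immature B cell-like cells had 4.60%, 4.19%, 4.40% and 3.98% mt- UMIs. Mature B cell-like cells had 4.56%, 4.22%, 4.11% and 4.03%, and small pre-B cell-like cells had 4.08% ± 0.14; these 3 overlapped. T cell-like cells followed with 3.71% ± 0.14 and plasmacytoid dendritic cell-like cells with 3.44% ± 0.074, and erythroid progenitor-like cells reached 3.33% ± 0.082. Pro-B or large pre-B cell-like cells, the earliest class named for the B lineage, had 2.85% ± 0.14. Clusters 26 and 27, unnamed but with B lineage genes among their leading genes, had 3.22% ± 0.18 and 1.61% ± 0.11. The lowest levels of the 23 classes with at least 20 cells in each library were neutrophil-like: 0.403% ± 0.024 in maturing, 0.466% ± 0.074 in mature, 0.592% ± 0.047 in immature and 1.08% ± 0.11 in dividing precursor-like cells. Barcodes above 10% mt- UMIs were left out, 1.34% to 1.62% of the barcodes of a library, and some mt- levels moved with that limit: with no limit mature neutrophil-like cells had 0.644%. The ratio of immature B cell-like to maturing neutrophil-like cells was 10.7, and 6.20 with the members and the 20 highest genes of each class left out of the total.

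Nuclear and mitochondrial levels were thus not set in 1 ratio over classes. Over the 23 classes their r was 0.52, and 0.17 over the 19 classes that are not neutrophil-like. Mature B cell-like cells had 3.59, 3.17, 3.06 and 2.85 mt- UMIs for each nuclear member UMI in the 4 libraries, and T cell-like cells had 2.28 on average. GMP-like cells had 0.909 and erythroid progenitor-like cells 0.925. Maturing neutrophil-like cells had 0.511 ± 0.053, and the lowest library of mature B cell-like cells was above every library of these 3 classes. Over the 23 classes the mt- level had r = -0.13 with the log2 median UMI count of the class.

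**Figure D1:**
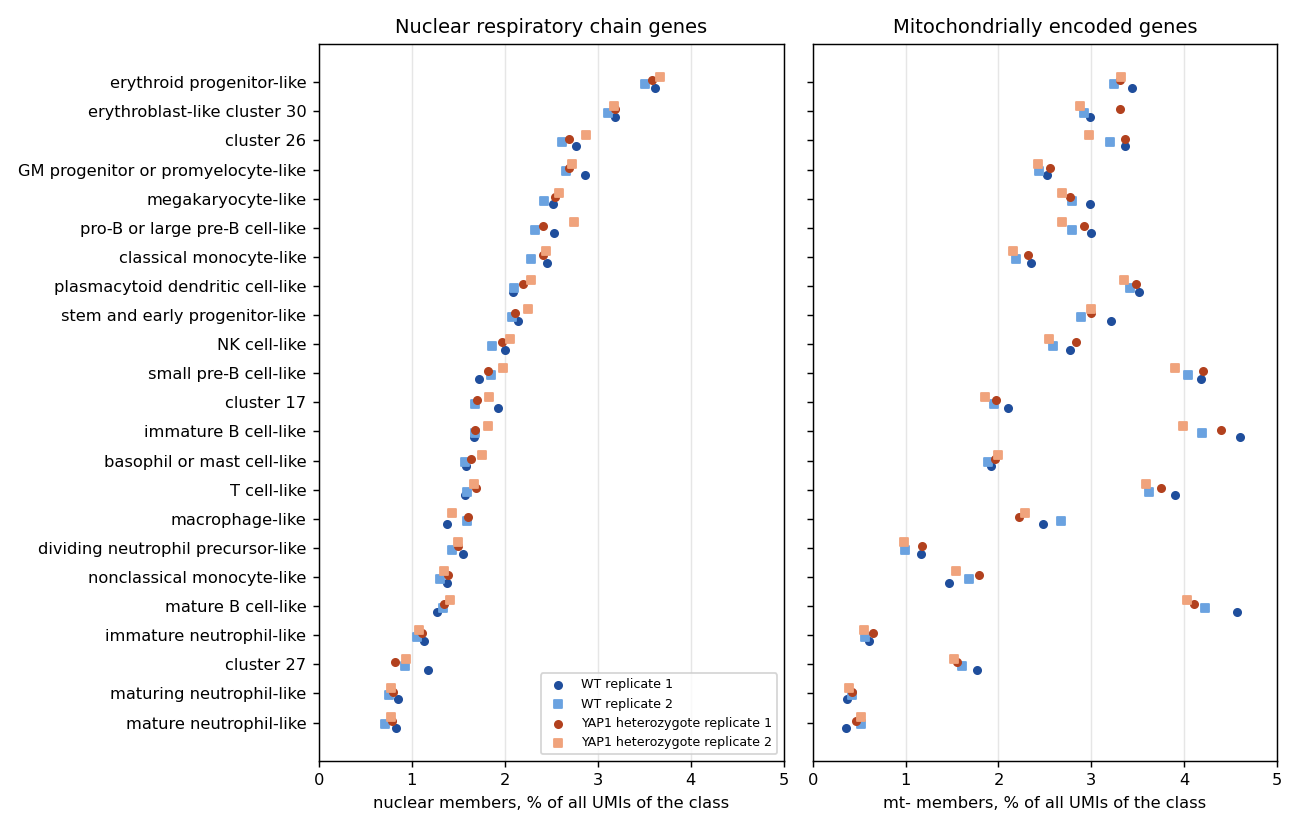
Summed UMIs of the nuclear members (left) and of the mt- members (right) as a percentage of all UMIs of a class, 1 point per library, with classes in rows ordered by the nuclear level. Erythroid progenitor-like cells lead on the left at 3.60% on average, and immature B, mature B and small pre-B cell-like cells lead on the right at over 4% on average. Mature and maturing neutrophil-like cells are lowest on the left, and the 4 neutrophil-like classes are lowest on the right.

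The subunits of each complex were followed by their 3 members with the highest level over all cells, as counts per 1000000 UMIs of the class (CPM); with 3′ counting 1 UMI stands for 1 molecule whatever its length. In complex IV, Cox4i1, a subunit that contacts the catalytic core, was at 829 CPM over all cells, Cox8a at 743 CPM and Cox7c at 487 CPM. Cox4i1 was at 1283, 1356, 1374 and 1387 CPM in erythroid progenitor-like cells and at 413, 398, 393 and 388 CPM in maturing neutrophil-like cells, so the classes were far apart and the genotypes were not. In complex V, Atp5h, the d subunit of the peripheral stalk, was at 615 CPM over all cells, Atp5e at 526 CPM and Atp5l, the g subunit in the membrane, at 513 CPM. Atp5h was highest in erythroblast-like cluster 30 (1091 CPM) and lowest in mature neutrophil-like cells (214 CPM).

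In complex III, Uqcrh, the hinge protein near cytochrome c1, was at 502 CPM over all cells, Uqcrq at 282 CPM and Uqcrb at 241 CPM. Uqcrh was highest in small pre-B cell-like cells, at 824, 883, 869 and 925 CPM, and lowest in immature neutrophil-like cells (267 CPM). Uqcrq was about as low in mature B cell-like (134 CPM) as in maturing neutrophil-like cells (137 CPM), so a low level of a subunit was not only neutrophil-like. In complex I, the membrane arm accessory subunits Ndufb1, Ndufb7 and Ndufb11 led with 382, 311 and 274 CPM over all cells. Ndufb1 was highest in classical monocyte-like cells, at 664, 515, 521 and 538 CPM, with WT replicate 1 above the other libraries. Complex II was the least abundant: Sdhb, the iron-sulfur subunit, was at 104 CPM over all cells, Sdhd and Sdhc, the membrane anchors, at 84.9 and 54.2 CPM, and Sdha, the flavoprotein, at 73.6 CPM. All 4 were highest in erythroid progenitor-like cells. Cycs was at 229 CPM over all cells, at 560, 504, 476 and 487 CPM in erythroid progenitor-like cells and at 35.7, 31.1, 27.1 and 27.8 CPM in mature neutrophil-like cells.

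Most nuclear members followed the sum of the others. Of the 78 nuclear members with at least 50 CPM over all cells, 51 were highest in erythroid progenitor-like cells. In the immature, maturing or mature neutrophil-like class 62 were lowest, 1 in dividing neutrophil precursor-like cells and 13 in cluster 27. The median r of a member's log2 CPM with the log2 sum of the other nuclear members over 23 classes was 0.92. The 5 members least like the sum were Ndufv3 (r = 0.41), Ndufa1 (0.47), Cox7a2l (0.48), Ndufb7 (0.59) and Ndufa3 (0.69). Cox7a2l, which helps complexes III and IV assemble into supercomplexes, was at 516, 678, 563 and 618 CPM in small pre-B cell-like cells and at 99.1, 114, 105 and 113 CPM in dividing neutrophil precursor-like cells. Ndufv3, an accessory subunit of the matrix arm of complex I, was highest in GMP-like cells (245 CPM), and Ndufa3 was highest in megakaryocyte-like cells (254 CPM). Ndufa1 was highest in cluster 27 at 201 CPM, but its libraries ranged there from 125 to 259 CPM.

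The widest ranges over classes were those of Ndufa5, Atp5g1, Ndufc2, Ndufab1 and Atp5g2, with differences of 6.12, 6.002, 5.41, 5.23 and 4.63 in log2(CPM + 1) between the highest and the lowest class. Ndufa5, an accessory subunit near the quinone site of complex I, was at 265, 240, 266 and 284 CPM in erythroid progenitor-like cells and at 3.82, 2.16, 1.56 and 3.66 CPM in mature neutrophil-like cells. The lower values were under the level of Cd79a, a B cell receptor gene, in the same neutrophil-like cells (7.60 CPM, against 2806 CPM in mature B cell-like cells), so they cannot be told apart from free RNA. Ndufc2, at 7.79 CPM in mature neutrophil-like cells, was near that level too. Ndufab1, the mitochondrial acyl carrier protein, was at 440 CPM in erythroid progenitor-like and 10.8 CPM in maturing neutrophil-like cells. Atp5g2, 1 of 3 genes for the c subunit of the ATP synthase ring, was highest in megakaryocyte-like cells, at 842, 911, 931 and 828 CPM, and at 34.5 CPM in mature neutrophil-like cells.

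Along the neutrophil-like series, from GMP-like through dividing precursor-like, immature and maturing to mature cells, the respiratory chain genes were lower at the end than at the start. All 78 nuclear and 11 mt- members with at least 50 CPM over all cells were lower in mature neutrophil-like than in GMP-like cells in 4 of 4 libraries. The median ratio of mature to GMP-like level was 0.224 for nuclear members and 0.139 for mt- members, against 0.632 for all 2703 genes with at least 50 CPM. As summed levels, GMP-like cells had 3.53 ± 0.14 times the nuclear level and 5.46 ± 1.07 times the mt- level of mature neutrophil-like cells, and 3.51 ± 0.16 and 5.65 ± 1.28 times without the clusters mostly from WT replicate 1. With the members and the 20 highest genes left out of the total these ratios were 2.66 and 4.12, and counted per cell, with median UMI counts of 26796 and 3075, they were 28.9 and 44.7. All these levels are shares of the RNA counted in a class and not amounts per mitochondrion.

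The members differed widely in this ratio. The ratios of mature to GMP-like level ran from 0.0209 for Ndufa5, whose mature level was under that of Cd79a in the same cells as given above, to 0.7997 for Atp5l, with 17 nuclear members under 0.1 and 9 over 0.5. Among those under 0.1, Ndufa9, Ndufs3, Ndufc2 and Ndufv1 were also under or near the Cd79a level in mature cells (4.24, 7.62, 7.79 and 8.21 CPM). Ndufa5 was at 131, 54.8, 20.6, 6.75 and 2.80 CPM in the 5 classes in order, and Atp5g1 at 586, 102, 46.2, 16.97 and 17.9 CPM. Uqcrb, a small subunit of complex III, was at 456, 221, 138, 62.3 and 26.9 CPM. Cycs was at 435, 164, 94.8, 42.9 and 30.4 CPM, and its ratio was 0.0773, 0.0730, 0.0647 and 0.0638 in the 4 libraries. For Uqcrb and Cycs each class lay below the one before. Atp5g1 was no lower in mature than in maturing cells, and the last step of Ndufa5 is not read, its mature level being no higher than free RNA could give.

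Other members had their lowest share of UMIs in the dividing or immature class and a higher share again in mature cells. The 20 highest genes outside the members took 56.6% of UMIs in immature and 41.0% in mature neutrophil-like cells. Their part in these rises was not tested. Atp5l was at 638, 351, 368, 398 and 508 CPM, and in mature neutrophil-like cells the libraries had 528, 470, 506 and 528 CPM. Cox8a was at 1012, 598, 422, 425 and 564 CPM, Uqcrh at 550, 268, 267, 275 and 304 CPM, and Cox7a2l at 235, 108, 110, 125 and 160 CPM. Mature values of Atp5l were above the immature values (400, 348, 362 and 363 CPM) in each of the 4 libraries, as were those of Cox8a, so 1 complex held members of both kinds. By complex, the summed level in mature cells was 0.405 ± 0.027 of that in GMP-like cells for complex II, 0.312 ± 0.0093 for complex IV, 0.294 ± 0.012 for complex III, 0.279 ± 0.015 for complex I, 0.267 ± 0.012 for complex V and 0.0697 ± 0.0065 for Cycs. The log2 ratio had r = -0.30 with log2 transcript length over the 78 nuclear members, a description across genes.

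**Figure D2:**
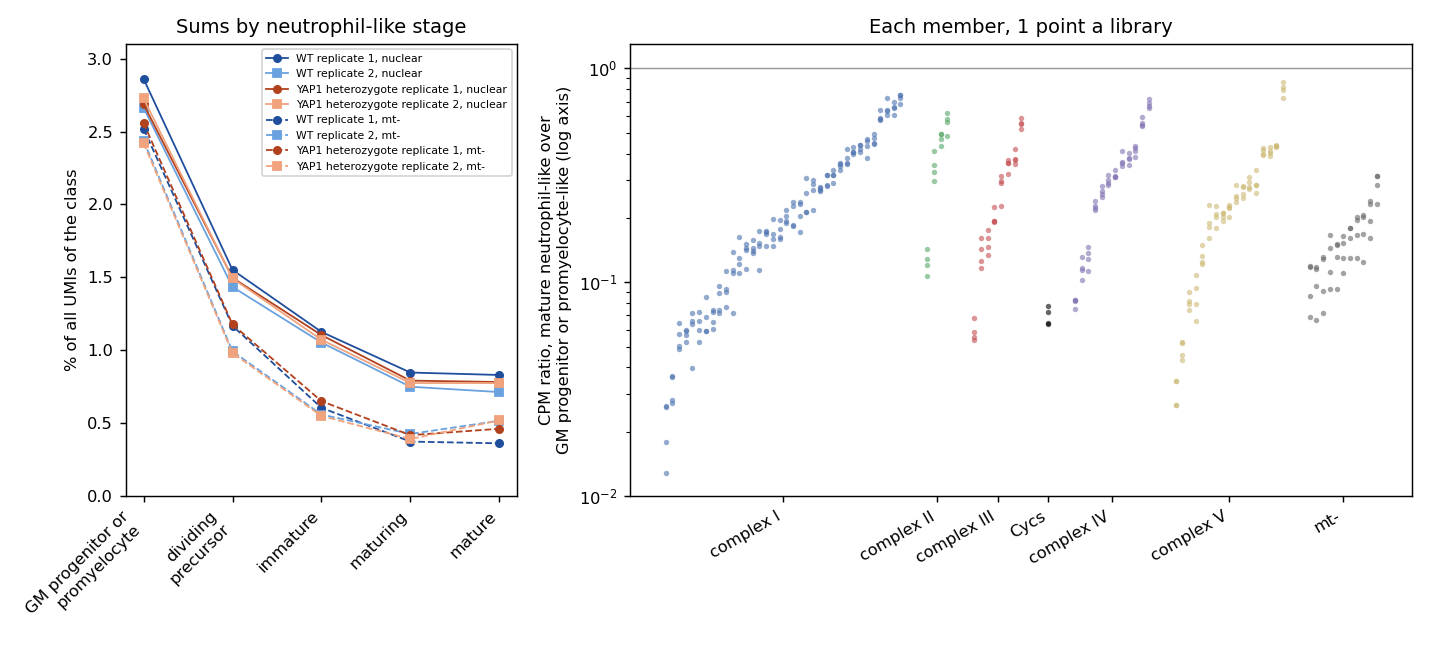
Left, nuclear and mt- members as a percentage of all UMIs in the 5 classes of the neutrophil-like series, 1 line per library. Right, CPM ratio of mature neutrophil-like over GMP-like cells on a log axis, 1 point per member and library, by complex. All points lie below 1, with means over libraries from 0.0209 (Ndufa5, at a mature level that free RNA could give) to 0.7997 (Atp5l) for nuclear and from 0.0979 to 0.286 for mt- members.

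The make-up of the mt- UMIs differed between erythroid progenitor-like and neutrophil-like cells, and the division of nuclear member UMIs between complexes differed less between them. Over all cells mt-Co1, the catalytic subunit 1 of complex IV, was at 4019 CPM, mt-Atp6, a channel subunit of ATP synthase, at 3649 CPM, mt-Co3 at 3644 CPM and mt-Co2, which takes electrons from cytochrome c, at 3029 CPM. The complex III subunit mt-Cytb was at 1599 CPM. The complex I subunits were lower, from mt-Nd4 at 1357 CPM, mt-Nd1 at 1069 CPM and mt-Nd2 at 769 CPM to mt-Nd5 at 338 CPM, mt-Nd3 at 189 CPM and mt-Nd4l at 123 CPM. The lowest were mt-Atp8 at 49.8 CPM, which overlaps mt-Atp6, and mt-Nd6 at 14.2 CPM, the 1 member on the light strand. The mitochondrial transcripts are cut from long precursors, and those whose genes overlap (mt-Atp8 with mt-Atp6, and mt-Nd4l with mt-Nd4) stay on 1 RNA, so the division of counts between such partners is uncertain.

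In erythroid progenitor-like cells mt-Co1 was 15.3%, 15.01%, 15.5% and 14.7% of all mt- UMIs in the 4 libraries, and in maturing neutrophil-like cells it was 33.9%, 31.3%, 32.4% and 31.02%. The classes were far apart in every library. GMP-like cells had 18.5% and mature B cell-like cells 18.8%. The share of mt-Nd1 went the other way, with 7.64% in erythroid progenitor-like and 2.44% in maturing neutrophil-like cells, as did mt-Nd2 (5.34% and 1.70%), mt-Cytb (10.2% and 6.06%) and mt-Atp6 (19.7% and 15.3%). Shares of mt-Co2 (14.2% and 17.3%) and mt-Co3 (16.4% and 17.1%) differed less. Summed by complex, mt- members of complex I were 24.2% ± 0.67 of mt- UMIs in erythroid progenitor-like and 14.02% ± 0.48 in mature neutrophil-like cells, and those of complex IV were 45.7% ± 0.62 and 62.5% ± 1.1. For the nuclear members the shares in the same 2 classes were 27.5% and 28.5% for complex I, 26.9% and 30.8% for complex IV and 31.01% and 28.0% for complex V.

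**Figure D3:**
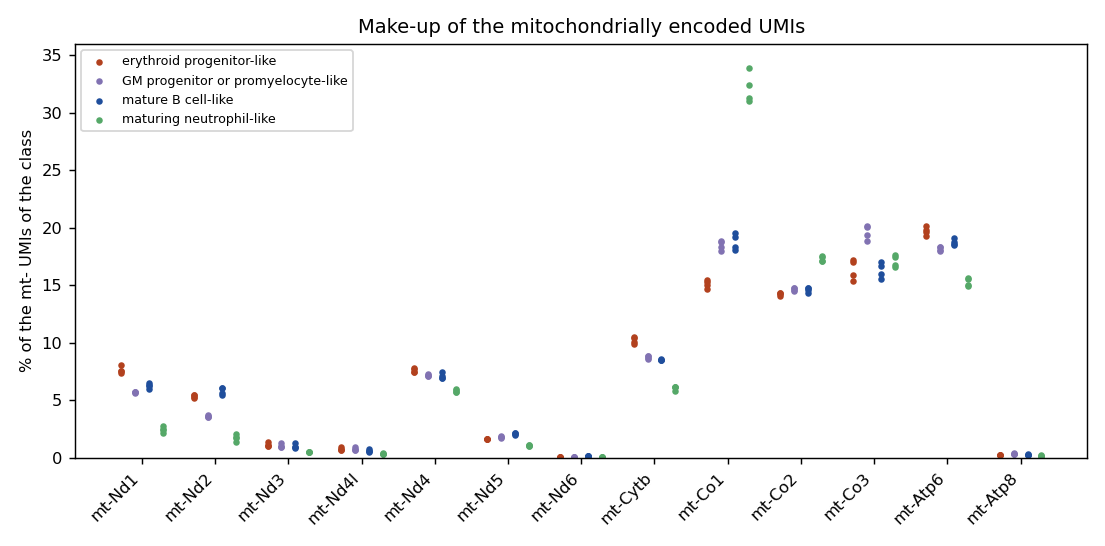
Share of each of the 13 mt- genes in the mt- UMIs of 4 classes, in percent, 1 point per library. The mt-Co1 points of maturing neutrophil-like cells lie between 31.02% and 33.9%, apart from those of erythroid progenitor-like cells between 14.7% and 15.5%.

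Several subunits have a second gene with a tissue-restricted isoform, and their use differed between classes. Cox6a2 (chromosome 7, 128205435 to 128206387, minus strand, GRCm38) encodes the heart and skeletal muscle form of subunit 6a of complex IV, and Cox6a1 (chromosome 5) the form of most other tissues. In plasmacytoid dendritic cell-like cells Cox6a2 was at 1067, 1034, 1047 and 1133 CPM and Cox6a1 at 299, 281, 329 and 327 CPM. Cox6a2 thus held 78.1%, 78.6%, 76.1% and 77.6% of the UMIs of the pair, far above the other gene in every library. A UMI of Cox6a2 was found in 1169 of 1362 of these cells (85.8%, median 7038.5 UMIs), and in 0.697% of T cell-like cells (median 4544.5 UMIs). Thinned to 2000 UMIs per cell, which left out 9 and 56 cells, the shares were 74.2% and 0.263%. Cox6a2 is also among the leading genes of the plasmacytoid dendritic cell-like cluster, whose position in the clustering did not use it.

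Away from these cells Cox6a2 was low but not absent. Hematopoietic stem and early progenitor-like cells had 13.7%, 7.95%, 11.503% and 14.5% of the pair's UMIs from Cox6a2, spread over 141 of 1051 cells with at most 23 of 572 UMIs in 1 cell. Siglech, a marker of plasmacytoid dendritic cells, was there at 11.4 CPM, against 2288 CPM in the plasmacytoid class, and whether cells of that lineage carry the Cox6a2 was not tested. Small pre-B cell-like cells had 9.29%, 8.96%, 13.8% and 9.22%, with a UMI in 6.25% of cells and in 5.17% after thinning. The value of macrophage-like cells, 4.78% on average, rests on 7 UMIs of 1 cell in WT replicate 2, and the other libraries had 0%, 0.813% and 1.64%. Erythroid progenitor-like cells had 0.127% on average.

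Cox6b2 (chromosome 7, 4751792 to 4753094, minus strand), known as the testis form of subunit 6b, was used in another part of the marrow. In erythroid progenitor-like cells it held 23.8%, 25.2%, 23.9% and 22.9% of the UMIs of Cox6b1 and Cox6b2, at 237, 230, 225 and 226 CPM against a mean of 730 CPM for Cox6b1. The share was 22.6% ± 3.4 in erythroblast-like cluster 30, with 17.7% in WT replicate 1, and 14.2% ± 1.3 in hematopoietic stem and early progenitor-like cells. It was 10.5% ± 1.1 in megakaryocyte-like and 9.06% in GMP-like cells, and 0.876% ± 0.43 in mature neutrophil-like cells. A Cox6b2 UMI was in 85.8% of erythroid progenitor-like cells, and after thinning to 2000 UMIs in 40.1% of these and 0.394% of T cell-like cells. The neighbours in this order, the 2 erythroid classes, overlapped, and the stem and early progenitor-like class lay below both in each library.

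The c subunit of ATP synthase is encoded by Atp5g1, Atp5g2 and Atp5g3, whose mature proteins are identical and whose import sequences differ. Atp5g1 held 44.3%, 45.5%, 45.3% and 47.5% of their UMIs in erythroid progenitor-like cells, 45.1% ± 0.31 in erythroblast-like cluster 30 and 36.4% ± 0.53 in GMP-like cells. Atp5g1 itself was at 1088, 1152, 1139 and 1224 CPM in erythroid progenitor-like cells. Atp5g2 held 60.0% ± 1.9 in cluster 17, 59.1% ± 1.2 in mature B cell-like and 56.8% ± 1.4 in plasmacytoid dendritic cell-like cells. In maturing neutrophil-like cells Atp5g3 held 44.8%, 40.8%, 43.1% and 40.7%, against 18.9% in mature B cell-like cells, and Atp5g1 held 17.4% ± 0.31. The maturing neutrophil-like class, where all 3 genes were low, thus had relatively more Atp5g3 and the erythroid classes more Atp5g1.

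Other isoforms were close to absent in the 23 classes. Cox4i2, the lung form of subunit 4, reached at most 1.33% of the pair's UMIs (macrophage-like cells, 14 UMIs), followed by 0.285% in hematopoietic stem and early progenitor-like cells. Cox7a1, the muscle form of subunit 7a, reached 1.24% ± 0.49 in pro-B or large pre-B cell-like cells, and its 1.39% in macrophage-like cells came from 2 UMIs. Ndufa4l2, known as a gene induced by low oxygen, had its 4 UMIs in cluster 27. Cox7b2 and Cox8c had 1 UMI each, so Cox7b and Cox8a supplied nearly all UMIs of their subunits.

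**Figure D4:**
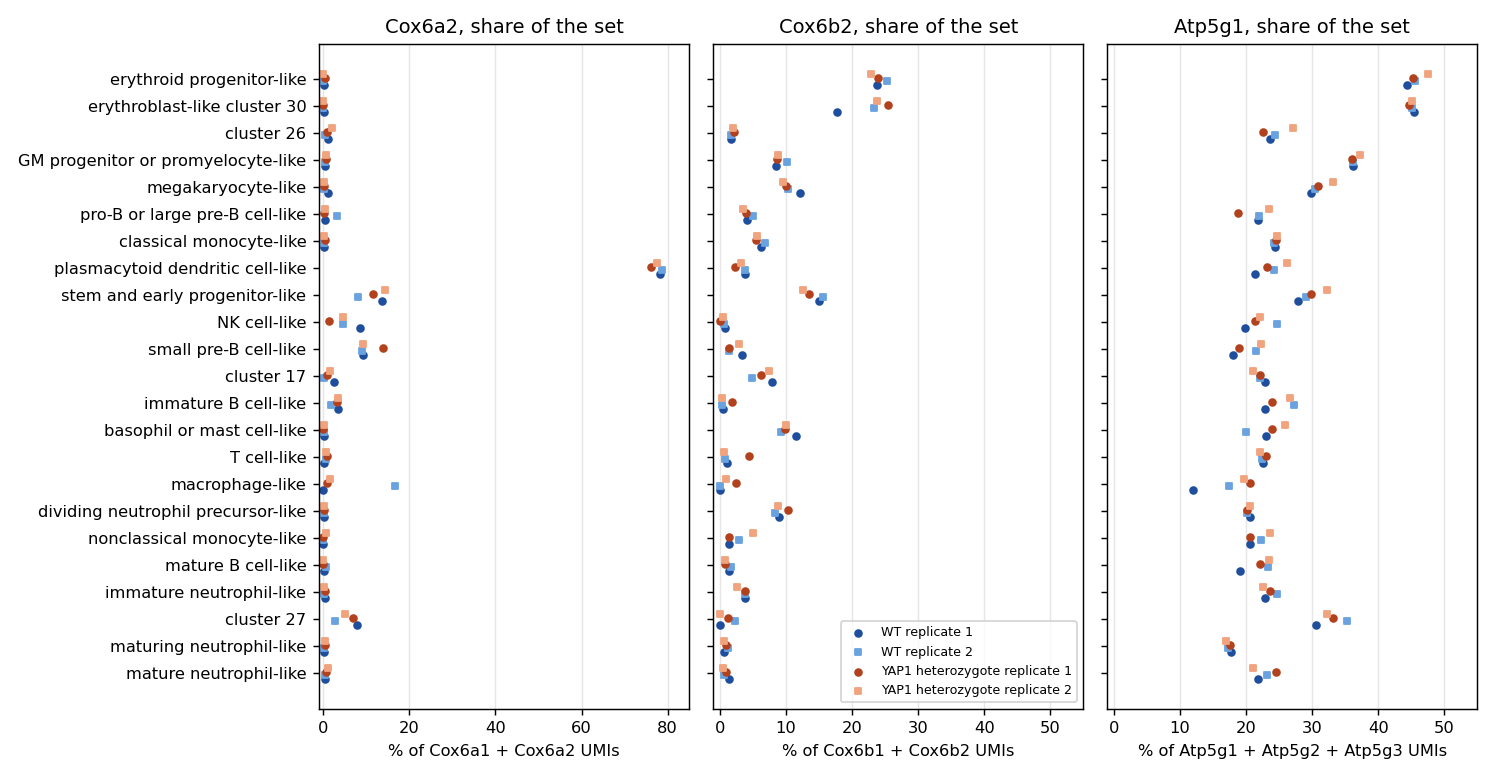
Share of Cox6a2, Cox6b2 and Atp5g1 in the UMIs of their sets (Cox6a1 and Cox6a2, Cox6b1 and Cox6b2, and the 3 Atp5g genes), in percent, by class, 1 point per library. Cox6a2 stands at 76.1% to 78.6% in plasmacytoid dendritic cell-like cells, and Cox6b2 and Atp5g1 are highest in the erythroid classes.

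WT and YAP1 heterozygote libraries were compared because the design text of the study names this comparison. No member passed the test, over all cells or in any class. Over all kept cells the nuclear members made up 1.95%, 1.91%, 1.93% and 1.98% of UMIs and the mt- members 1.99%, 2.00%, 2.00% and 1.94%. The groups overlapped in both: the differences, YAP1 heterozygote minus WT, were 0.0251 and -0.0273 percentage points, each with an exact two-sided permutation p of 0.667, where 2 against 2 libraries cannot give less than 0.333. Without the 2 neutrophil-like clusters that came mostly from WT replicate 1, the nuclear difference was -0.0152 percentage points. In edgeR's quasi-likelihood test over all cells 0 of 104 members were called at an adjusted p under 0.05 (0.0% of all genes were called), 0 had an unadjusted p under 0.05, and the lowest adjusted p of a member was 0.999. The log2 fold changes of the 89 members with at least 50 CPM lay between -0.19 and 0.13, with a median standard error of 0.083.

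Within classes, 0 of 2286 pairs of a member and a class were called by edgeR, where 0.0323% of all 201539 gene and class pairs were called. An unadjusted p under 0.05 was found for 19 member pairs, 0.831% of them, against 4.69% of all pairs. DESeq2 called 0 member pairs and 176 pairs of all genes. The 0 became 2 with the replicate number as a block, a setting in which edgeR called 1885 pairs of all genes against 65. Members were also called when WT replicate 2 was left out, which leaves WT replicate 1 alone in its group. The lowest unadjusted p-values came from small counts or single classes. Cox6a2 in GMP-like cells was at 1.35 and 1.57 CPM in WT and 2.86 and 2.70 CPM in YAP1 heterozygote libraries (log2 fold change 0.94 ± 0.25 SE, edgeR adjusted p = 1.00); with doublets kept the log2 fold change was 0.25. The complex I assembly factor Ndufaf7 in NK cell-like cells was at 10.9 and 9.90 CPM against 27.004 and 29.4 CPM (adjusted p = 0.914), and Ndufaf6 in small pre-B cell-like cells at 7.52 and 6.61 CPM against 3.28 and 1.78 CPM (adjusted p = 0.957). Atp5pb, the b subunit of the ATP synthase stalk, was at 215 and 195 CPM in WT and 286 and 335 CPM in YAP1 heterozygote macrophage-like cells (log2 fold change 0.65 ± 0.25 SE, adjusted p = 0.575), a class whose cells had a median of 1667 UMIs. In each of these the groups did not overlap, and none passed the threshold.

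Class by class, the fold changes of nuclear members centred slightly above 0 and those of mt- members slightly below. Median log2 fold changes of nuclear members ran from -0.02 in GMP-like to 0.15 in pro-B or large pre-B cell-like cells and lay above the median of all genes in 20 of 23 classes. Those of mt- members ran from -0.13 in mature B cell-like to 0.12 in mature neutrophil-like cells and lay below the median of all genes in 17 of 23 classes, while the medians of all genes lay between -0.01 and 0.01. The classes share libraries, so these are not 23 independent observations. The 0.12 of mature neutrophil-like cells compares cells that sit in different clusters by library, since 1305 of the 2215 cells of WT replicate 1 were in cluster 1, against at most 125 in any other library. The mt- members there summed to 0.363%, 0.518%, 0.463% and 0.520% of UMIs. The median was 0.20 without clusters 1 and 10, -0.15 when WT replicate 1 was left out and -0.04 when YAP1 heterozygote replicate 2 was. The pro-B median of 0.15 was 0.01 when YAP1 heterozygote replicate 2 was left out and 0.24 when replicate 1 of that genotype was.

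In plasmacytoid dendritic cell-like cells the nuclear members summed to 2.08% and 2.10% in WT and 2.19% and 2.28% in YAP1 heterozygote libraries. Of 89 nuclear members tested, 33 were higher in both YAP1 heterozygote libraries than in both WT libraries and 2 were lower in both, where 16.1% and 19.3% of all genes of the class were so placed; the median log2 fold change was 0.12, and 0.07 without YAP1 heterozygote replicate 2. Hbb-bs, a hemoglobin gene, was at 9.41 and 346 CPM in the WT and 32.1 and 1570 CPM in the YAP1 heterozygote libraries of these cells, higher in replicate 2 of each group, and its part in the member values was not tested. In megakaryocyte-like cells, the platelet precursors, the nuclear members summed to 2.52% and 2.43% in WT and 2.55% and 2.58% in YAP1 heterozygote libraries, and the mt- members to 2.99% and 2.79% against 2.76% and 2.68%. Of 88 nuclear members there, 23 were higher in both YAP1 heterozygote libraries (13.6% of all genes), and of 13 mt- members 4 were lower in both (15.8% of all genes). All 13 mt- fold changes in these cells were below 0, with a median log2 fold change of -0.08. For both sums the nearest libraries of the 2 groups differed by less than the 2 WT libraries did.

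In mature B cell-like cells the mt- members summed to 4.56% and 4.22% in WT and 4.11% and 4.03% in YAP1 heterozygote libraries, and 9 of 13 were lower in both YAP1 heterozygote libraries (15.1% of all genes of the class). All 13 fold changes were below 0, with a median log2 fold change of -0.13, which was -0.09 when WT replicate 1 was left out and -0.20 when YAP1 heterozygote replicate 2 was. mt-Nd3, a core subunit of complex I, was at 565 and 404 CPM in WT and 344 and 370 CPM in YAP1 heterozygote libraries (log2 fold change -0.45 ± 0.16 SE, edgeR adjusted p = 0.723). WT replicate 1 was the highest library. The log2 fold change was -0.20 when that library was left out and -0.68 when WT replicate 2 was, each with 1 WT library left. With the replicate number as a block, which also separates the Ddx3y from the Xist libraries, it was -0.43 (edgeR adjusted p = 0.0050). The nuclear members of the same cells went the other way, with 28 of 88 higher in both YAP1 heterozygote libraries (19.6% of all genes).

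In the nuclear members, WT replicates 1 and 2 differed from the other libraries with transcript length, in opposite directions. Over the 78 nuclear members with at least 50 CPM, the log2 ratio of WT replicate 1 to the mean of the other libraries had r = -0.57 with log2 transcript length, and r was 0.61 for WT replicate 2, 0.17 for YAP1 heterozygote replicate 1 and 0.12 for YAP1 heterozygote replicate 2. Of the 26 shortest members (362 to 642 bases), 15 were highest in WT replicate 1, and of the 26 longest (1046 to 3171 bases), 21 were lowest there. In WT replicate 2, 21 of the shortest were lowest and 17 of the longest were highest. In WT replicate 1 r was below 0 in 23 of 23 classes, and in WT replicate 2 in 0 of 23. Over the 11 mt- members with at least 50 CPM r over all cells was -0.68, 0.69, 0.66 and 0.37 in the order of the libraries. The mt- signs were not the same in every class. In immature neutrophil-like cells r over 9 mt- members was 0.71 in WT replicate 1 and -0.55 in WT replicate 2. In mature neutrophil-like cells it was 0.36 and -0.36. Over all 2703 genes with at least 50 CPM, r over all cells was 0.09, -0.13, 0.04 and -0.22 in the order of the libraries. The nuclear pattern was thus not that of all genes. These values are descriptions across genes, and the pattern was noticed in the data. Its part in the fold changes between genotypes was not tested.

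**Figure D5:**
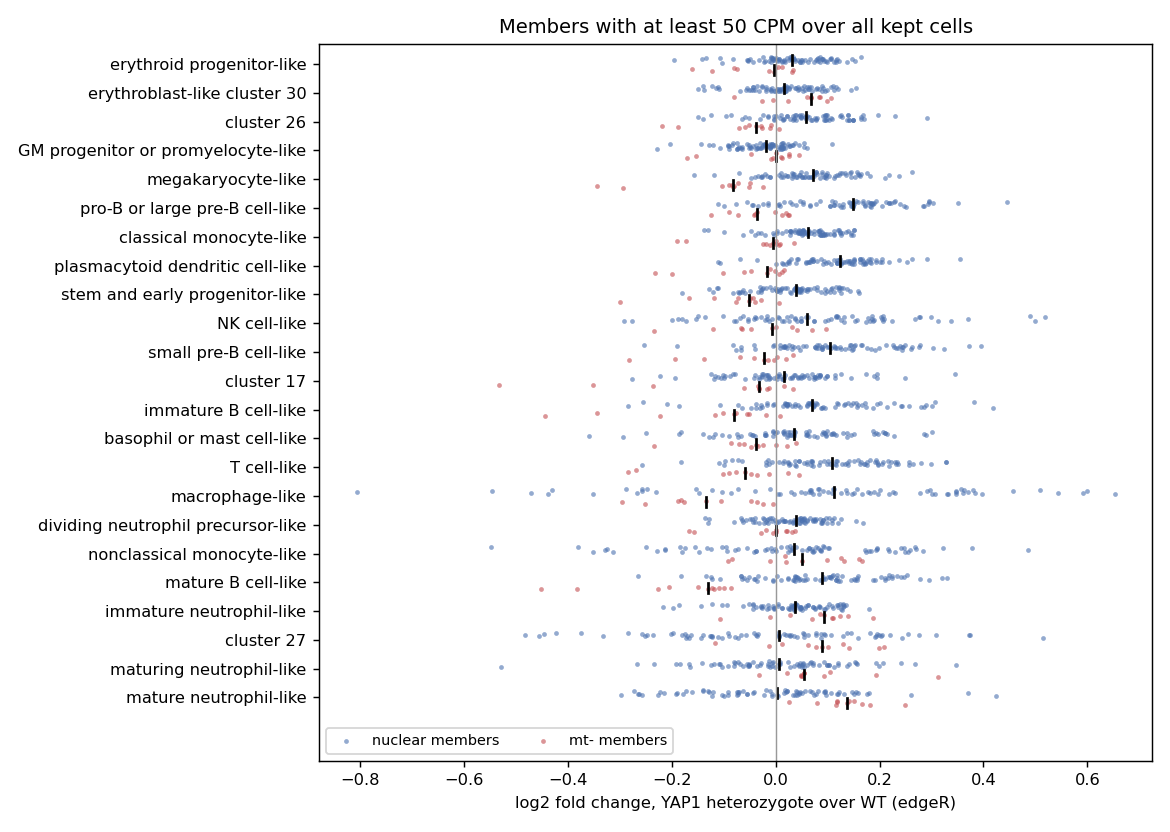
Log2 fold change of YAP1 heterozygote over WT (edgeR) for members with at least 50 CPM over all cells, by class, with nuclear and mt- members in different colours, 1 point per member and a black tick at each median. The ticks lie close to 0 in all classes, and in mature B cell-like and megakaryocyte-like cells every mt- point lies below 0.

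Genes around the chain, from lists of assembly factors, regulators of mitochondrial DNA and transcription, the citric acid cycle, inner membrane carriers and antioxidant proteins, were measured in the same classes. Their summed levels were all highest in erythroid progenitor-like cells and had r with the nuclear member sum of 0.93 for assembly factors, 0.86 for regulators, 0.95 for the citric acid cycle, 0.85 for carriers and 0.25 for antioxidant and prohibitin genes. The last list holds Chchd10, a protein of the intermembrane space, which was at 1712 ± 235 CPM in small pre-B cell-like and 2.05 CPM in immature neutrophil-like cells. Slc25a4, a carrier that exchanges ADP for ATP, was highest in plasmacytoid dendritic cell-like cells (160 CPM) and at 0.68 CPM in dividing neutrophil precursor-like cells. Uqcc2, an assembly factor of complex III, and Idh3a, a subunit of isocitrate dehydrogenase, were highest in erythroid progenitor-like cells, at 203 and 153 CPM.

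Between genotypes, 0 of 740 pairs of an assembly factor (39 genes) and a class were called, 0 of 348 for the citric acid cycle (16 genes), 0 of 280 for carriers (13 of 15 genes tested) and 0 of 224 for antioxidant and prohibitin genes (10 genes). Of all gene and class pairs, 0.0323% were called. Of 493 pairs for regulators (28 of 29 genes), 1 was called: Myc, which drives growth and the expression of mitochondrial regulators, was higher in YAP1 heterozygote libraries of cluster 26 (log2 fold change 1.19 ± 0.19 SE, edgeR adjusted p = 0.0238), where 0.169% of all genes were called. In other classes no gene of these lists was called in either direction. An unadjusted edgeR p under 0.05 was found for 18 of 740 assembly factor pairs and 8 of 348 citric acid cycle pairs. It was also found for 1 of 280 carrier pairs, 9 of 224 antioxidant and prohibitin pairs and 13 of 493 regulator pairs. Of all gene and class pairs, 4.69% had such a p. DESeq2 called 1 pair of the regulators and 0 of the other lists.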

How the data were processed

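The authors deposited, for each of 4 libraries of mouse bone marrow, UMI counts per gene and barcode as whole numbers with no normalization. Per the file headers Cell Ranger 5.0.0 wrote the counts, while per the submitters' processing notes Cell Ranger 3.0.0, Seurat 4.3.0 and the builds GRCm38 and mm10 were used; the sources used here do not settle which version made the counts, nor whether counting used strand.

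Barcodes with at least 500 UMIs, 200 genes and at most 10% mt- UMIs were kept, and doublets called by Scrublet in scanpy 1.11.5 (3.38% to 4.40% of barcodes) were removed. Leiden clustering (2000 variable genes without the members, 30 components, 15 neighbours, resolution 1) gave the classes, named from marker lists. Class sums of counts in each library were tested over all genes with edgeR 4.0.16 (quasi-likelihood, filterByExpr, TMM factors, no replicate block, Benjamini-Hochberg adjustment within a class, threshold 0.05), in R 4.3.3. The test was checked on simulated data. DESeq2 1.42.0, other normalization, filters, mt- limits, doublets, class rules, a replicate block and leaving out each library were alternatives. Single sums of 2 against 2 libraries were compared with an exact two-sided permutation test. Intervals at the 95% level cover counting error only. Gene positions and transcript lengths came from GENCODE M21, promoters from RefSeq (GRCm38.p6).

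The genes named were all mt- members, the 3 highest members of each complex (4 of complex II), Cycs, isoforms, the 5 lowest p-values, the 5 least like the nuclear sum, the 5 with the widest range, and those with 0 UMIs. From the other lists the 2 widest ranging genes and any called gene could be named; Uqcc2, Idh3a, Chchd10, Slc25a4 and Myc are. The rule for the members used gene names only, but the members and lists were chosen with earlier results of these data known. The labels do not say whether replicates are separate animals, but the 2 libraries of each genotype differed in Ddx3y and Xist. The p-values measure the spread between these libraries. Without a replicate block, that spread within a genotype includes the difference of sex.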

Additional observations from a re-analysis of the deposited data

Results flagged for a closer look

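The mt- share of UMIs was compared in 23 classes. In some classes both YAP1 heterozygote libraries had a lower share than both WT libraries, and in 1 class both had a higher share. Each of these had an exact two-sided permutation p of 0.333, the lowest that 2 against 2 libraries can give. None is thus evidence of a difference between genotypes, and the difference between these classes was not tested. The lower ones were mature B cell-like cells (-0.322 percentage points), macrophage-like cells (-0.325), megakaryocyte-like cells (-0.168) and cluster 27 (-0.151). The higher one was the basophil or mast cell-like class (0.0754 percentage points, from 1.92% and 1.89% in WT to 1.96% and 2.00% in YAP1 heterozygote libraries). Cluster 27 had only 24 cells in WT replicate 1 and 29 in YAP1 heterozygote replicate 1, and the macrophage-like cells had a median of 1667 UMIs.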

How the results depend on the processing

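The count of 0 called pairs of a member and a class stayed at 0 with DESeq2, which called 176 pairs of all genes. The count also stayed at 0 without TMM factors, without the count filter, with other mt- limits, with doublets kept, with mt- genes out of the library size and with stricter classes. It was 2 with a replicate block (mt-Nd3 lower in mature B cell-like cells, log2 fold change -0.43, adjusted p = 0.0050, and Ndufa4 higher in small pre-B cell-like cells, 0.41, adjusted p = 0.0316), where edgeR called 1885 pairs of all genes against 65. With 1 library left out, members were called only without WT replicate 2, most of them lower in YAP1 heterozygote libraries. WT replicate 1 then stood alone for WT, so the spread came from the YAP1 heterozygote libraries only. The log2 fold change of mt-Nd3 in mature B cell-like cells was then -0.68. The cause of these calls was not tested. The labels do not tie the replicate numbers to shared animals or days. Same-numbered libraries were alike in Ddx3y and Xist, so the block also follows sex, and they had correlated deviations in all genes (r = 0.25 to 0.59 by class) and less so in members (-0.17 to 0.49).

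The nuclear share over all cells (0.0251) reversed to -0.0152 without the 2 clusters mostly from WT replicate 1 (an alternative chosen after seeing the data) and ranged from 0.000694 to 0.0495 with 1 library left out; the mt- share (-0.0273) ranged from -0.0543 to -0.00033. Without the members and the 20 highest genes in the total, and per cell, the erythroid progenitor-like to mature neutrophil-like nuclear ratio was 3.32 and 47.6, the immature B cell-like to maturing neutrophil-like mt- ratio 6.20 and 6.03, and the GMP-like to mature neutrophil-like nuclear ratio 2.66 and 28.9. The median mt- log2 fold change of mature neutrophil-like cells (0.12, added after seeing the data) reversed to -0.15 and -0.04 without WT replicate 1 and YAP1 heterozygote replicate 2, and was 0.44 without WT replicate 2, 0.31 with at most 20% mt- UMIs and 0.06 with doublets kept. The mt- per nuclear UMI of mature B cell-like cells was 2.83 with at most 5% mt- UMIs and that of maturing neutrophil-like cells 0.571 with no limit, and the Cox6a2 share in plasmacytoid dendritic cell-like cells was 79.9% in cells whose own best marker list matched. Ratios between classes are means of the 4 libraries' ratios. With 2 libraries per group, fold changes of members at a few CPM cannot be resolved.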
